A study of Homo sapiens with 6 samples.

Results

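The gRNAs described here targeted the cullins, the neddylation pathway that activates them and the COP9 signalosome that switches them off. They were taken from a genome-wide knockout screen of IMR32, a neuroblastoma cell line with MYCN amplification. A gRNA was a member if its gene name began with CUL or COPS followed by a digit, or was DTL, DDB1, RBX1, NEDD8, UBA3, NAE1, UBE2M, SKP1, CAND1, FBXW7, SKP2 or KEAP1. This gave 112 of 77441 gRNAs against 28 of 19364 genes, with 4 gRNAs for every member gene, and all 112 are listed in the files of both screens. All IMR32 cells came from a sorted Cas9+ population transduced with the Brunello gRNA library. They were grown alone (treatment label control), with CD14-depleted lymphocytes (lymphocyte co-culture), or with lymphocytes and 10 µg/ml of the PD-1 blocking antibody nivolumab (lymphocyte co-culture, nivolumab). Adherent cancer cells were harvested on day 5 per the labels, and each of the 3 conditions had 2 libraries, replicate 1 from screen 1 and replicate 2 from screen 2. The screens differed in blood donor and in the ratio of lymphocytes to cancer cells, and the labels do not say which screen had which ratio. The gRNAs were amplified from genomic DNA, so RNA markers of the cells could not be examined. The files name the gRNAs by gene and number without their sequences, so none is printed.

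Cullin-RING ligases attach ubiquitin to proteins and so mark many of them for destruction. A cullin holds a RING subunit, usually RBX1, at one end and an adaptor with a substrate receptor at the other. The ligase works when NEDD8, a small ubiquitin-like protein, is joined to the cullin. The NAE1 and UBA3 heterodimer activates NEDD8 and UBE2M passes it to most cullins, while the COP9 signalosome removes it again and CAND1 exchanges receptors on cullins without NEDD8. In dividing cells, CRL4 with the receptor DTL removes the replication licensing factor CDT1 during S phase, and SCF ligases built on SKP1 and CUL1 remove cell cycle inhibitors and cyclins.

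The libraries held between 58554842 and 79924251 reads, and the median member gRNA had between 502 and 818 reads per library. At most 1 member gRNA was without a read in any library. Abundance is given as a level, the log2 of normalized reads plus 1 minus the median of the same quantity over 1496 gRNAs against 374 olfactory receptor genes in the same library. These genes are expressed mainly in the nose and were taken as a neutral reference. Their expression in IMR32 was not measured here. A level of 0 therefore equals the typical olfactory receptor gRNA, which had between 983.7 and 994.7 normalized reads, and the level of a gene is the median over its 4 gRNAs. A library from before growth was not analysed here, so a gRNA that was rare at the start and a gRNA lost during growth cannot be told apart.

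In IMR32 alone UBE2M, UBA3, NEDD8, NAE1, DTL, COPS5, CUL3, RBX1, SKP1 and DDB1 were among the member genes whose gRNAs were scarce. Most cullins were less scarce than these, and the median level of the 8 cullins was -0.41. Across the members the median level was -0.55, against -0.21 over all genes, and 27 of 28 members were below 0, as were 69.7% of all genes. A gene was called low if its mean level over both libraries of IMR32 alone lay below the 5th percentile of olfactory receptor genes, -0.71. By this rule 12 of 28 members were low, 42.9%, against 16.9% of all 19364 genes. No member lay above the 95th percentile of olfactory receptor genes, which 1.79% of all genes exceeded. As a scale, 97 genes for ribosomal proteins had a median level of -1.35. Since each gene is compared with other genes rather than with another condition, these counts are a description and carry no test. The low call held in each of the 6 libraries, taken one at a time, for 8 members (28.6%, against 9.6% of all genes), namely DTL, COPS5, UBE2M, UBA3, NEDD8, RBX1, SKP1 and NAE1.

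Of the 5 genes for neddylation and cullin exchange, UBE2M, UBA3, NEDD8 and NAE1 were low and CAND1 was not, with a median level of -1.07 over the 5. UBE2M, the E2 enzyme for NEDD8 (GRCh38 chromosome 19, 58555712 to 58558954, minus strand), had levels of -1.29 alone, -1.54 in coculture and -1.45 with nivolumab in screen 1, and of -1.89, -2.09 and -2.14 in screen 2. The mean in IMR32 alone was -1.59 ± 0.42 (SD, n = 2), or 33.1% of the olfactory receptor median. All 6 libraries were thus low, but the 4 gRNAs did not act alike. UBE2M_2 had a level of 0.63 and UBE2M_1 of -0.40, while UBE2M_3 had -2.78 and UBE2M_4 had -8.38. UBE2M_4 was almost absent everywhere, with 7, 0 and 16 reads in screen 1 and 0, 13 and 5 in screen 2 for IMR32 alone, coculture and nivolumab. Without gRNAs that averaged under 50 normalized reads, UBE2M had a level of -0.41 and was no longer low.

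The gRNAs of the other neddylation genes spread less, apart from a single NEDD8 gRNA. UBA3, the catalytic subunit of the NEDD8-activating enzyme (chromosome 3, 69054730 to 69080408, minus strand), had levels of -0.84, -0.90 and -1.18 in screen 1 for IMR32 alone, coculture and nivolumab, and of -1.31, -1.19 and -1.04 in screen 2. All 4 of its gRNAs lay below 0 in IMR32 alone, between -1.89 and -0.75. NAE1, the regulatory subunit of the same enzyme (chromosome 16, 66802875 to 66873256, minus strand), had -0.75, -0.88 and -0.88 in screen 1, and -1.01, -0.95 and -1.08 in screen 2. Its gRNAs were the most alike among the low members, spanning only 0.70 log2 units. NEDD8 itself (chromosome 14, 24216857 to 24232367, minus strand) had -0.91, -1.25 and -1.19 in screen 1, and -1.23, -1.23 and -1.41 in screen 2. Here NEDD8_2 stood at -3.21 and the other 3 gRNAs between -1.33 and -0.70. The means in IMR32 alone, -1.08 ± 0.33 for UBA3, -1.07 ± 0.23 for NEDD8 and -0.88 ± 0.18 for NAE1 (SD, n = 2 each), differed by less than their spread. CAND1, which acts on cullins that have lost NEDD8, was apart from the enzymes, with -0.16 ± 0.01 (SD, n = 2).

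Of the 8 cullins only CUL3, the scaffold for BTB-domain receptors such as KEAP1, was low. CUL3 (chromosome 2, 224470150 to 224585397, minus strand) had levels of -0.76, -0.69 and -0.95 in screen 1 for IMR32 alone, coculture and nivolumab, and of -1.35, -1.13 and -1.38 in screen 2. Every library of screen 2 was below every library of screen 1. Its 4 gRNAs lay between -1.49 and -0.42. The remaining cullins, in order of level in IMR32 alone, were CUL2 (-0.53 ± 0.27), CUL9 (-0.47 ± 0.16), CUL4A (-0.43 ± 0.17), CUL5 (-0.38 ± 0.10), CUL7 (-0.38 ± 0.02), CUL1 (-0.20 ± 0.08) and CUL4B (0.27 ± 0.00), with SD and n = 2 throughout. From CUL2, the scaffold used by VHL, down this order to CUL7, neighbours differed by less than the SD of the more variable of them. The CUL2 screens did not overlap, with -0.34, -0.20 and -0.25 in screen 1 for IMR32 alone, coculture and nivolumab, and -0.72, -0.44 and -0.54 in screen 2. CUL1, the scaffold of SCF ligases, ranked 9949 of 19364 genes from the lowest.

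CUL4B was the highest of the 28 members in all 6 libraries, with 0.27, 0.20 and 0.16 in screen 1 for IMR32 alone, coculture and nivolumab, and 0.27, 0.24 and 0.20 in screen 2. CUL4A and CUL4B are close paralogues that both bind DDB1. In CUL4A, 2 gRNAs lay above 0 in IMR32 alone (0.16 and 0.41) and the others at -1.02 and -3.43. CUL4A_3, the lowest, had between 35 and 98 reads in every library. The CUL4B gRNAs had levels of 0.82, 0.29, 0.25 and -0.00, and CUL4B lies on the X chromosome, from 120505920 to 120604074 on the minus strand.

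Of the RING subunit, adaptors and receptors, 4 of 7 were low, and DTL had the lowest level of any member by the median over 4 gRNAs. RBX1, the RING subunit shared by most cullins (chromosome 22, 40951347 to 40973309, plus strand), had levels of -0.86, -0.89 and -1.07 in screen 1 and of -1.19, -1.29 and -1.09 in screen 2. SKP1, the adaptor of SCF ligases (chromosome 5, 134148935 to 134176964, minus strand), had -0.96, -0.91 and -0.73 in screen 1, and -0.83, -1.02 and -0.95 in screen 2. Both genes were low in all 6 libraries. The RBX1 values of screen 2 were all below those of screen 1, whereas the SKP1 values of the screens overlapped. For SKP1, 3 gRNAs lay between -1.05 and -0.80 and SKP1_4 lay at 0.25, so that with the mean over gRNAs (-0.66) SKP1 was no longer low. DDB1, the adaptor of CRL4 (chromosome 11, 61299451 to 61342596, minus strand), had -0.49, -0.77 and -0.79 in screen 1, and -1.05, -1.15 and -1.32 in screen 2. Every DDB1 value of screen 2 was below those of screen 1, and in IMR32 alone only the library of screen 2 was low. Its gRNAs formed 2 pairs, DDB1_3 and DDB1_4 at -1.64 and -1.39, and DDB1_1 and DDB1_2 at 0.11 and -0.14.

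DTL, the receptor that targets CDT1 for destruction at replicating DNA, lies on chromosome 1 from 212035553 to 212107400 on the plus strand. Its levels were -1.87 alone, -1.72 in coculture and -2.07 with nivolumab in screen 1, and -1.68, -2.33 and -1.82 in screen 2. The mean in IMR32 alone was -1.78 ± 0.13 (SD, n = 2), or 29.2% of the olfactory receptor median, and DTL ranked 139 of 19364 genes from the lowest. All 4 gRNAs were below 0. DTL_1 had 716 and 563 normalized reads in the 2 libraries of IMR32 alone, DTL_3 had 473 and 472, DTL_4 had 154 and 199, and DTL_2 had 32.2 and 26.5. The 4 gRNAs thus fell at levels of -0.64, -1.06, -2.49 and -5.03, in the same order in both libraries. DTL_2 averaged under 50 normalized reads, and without it the middle gRNA was DTL_3 at -1.06, above COPS5 at -1.63. That DTL was the lowest member thus rested on this scarce gRNA.

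The other receptors were near the olfactory receptor genes. KEAP1, which holds the oxidative stress factor NFE2L2 in check, had a level of -0.19 ± 0.15. FBXW7, a tumour suppressor that targets cyclin E and MYC proteins, had -0.15 ± 0.06, and SKP2, which targets the cell cycle inhibitor CDKN1B, had -0.12 ± 0.26 (SD, n = 2 for each). These values differed by less than the spread between the libraries. In SKP2, however, the screens did not overlap, with 0.06, 0.04 and -0.01 in screen 1 for IMR32 alone, coculture and nivolumab, and -0.30, -0.53 and -0.43 in screen 2.

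Within the COP9 signalosome, 3 of the 8 member subunits were low, and COPS5 was far below the others. COPS5, the catalytic subunit that cuts NEDD8 from cullins (chromosome 8, 67043079 to 67083783, minus strand), had levels of -1.59, -1.54 and -1.56 in screen 1 for IMR32 alone, coculture and nivolumab, and of -1.67, -1.61 and -1.54 in screen 2. These 6 values lay between -1.67 and -1.54, and the mean in IMR32 alone was -1.63 ± 0.06 (SD, n = 2). Its gRNAs COPS5_1, COPS5_3 and COPS5_4 had levels of -1.44, -2.32 and -1.82, whereas COPS5_2 had -0.01.

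COPS4 (chromosome 4, 83034447 to 83075818, plus strand), a subunit of the scaffold, had levels of -0.52, -0.80 and -0.70 in screen 1, and of -1.14, -1.19 and -1.12 in screen 2. COPS2, another scaffold subunit (chromosome 15, 49106068 to 49155661, minus strand), had -0.49, -0.52 and -0.59 in screen 1, and -0.92, -0.69 and -0.88 in screen 2. In both genes the screens did not overlap, and in IMR32 alone only the library of screen 2 was low. COPS2, with a mean of -0.71, lay at the threshold itself, and the nearest member above it was COPS6, the partner of COPS5, with -0.62 ± 0.25 (SD, n = 2). COPS6 had -0.44, -0.79 and -0.61 in screen 1, and -0.80, -1.08 and -1.06 in screen 2, so that it was below its threshold in 4 of 6 libraries. COPS7B had -0.57 ± 0.01, COPS3 -0.37 ± 0.19, COPS7A -0.24 ± 0.17 and COPS8 -0.02 ± 0.14 (SD, n = 2 each). COPS7A and COPS7B are alternative subunits for the same position in the complex. By the median over gRNAs COPS7B was the lower of the pair in IMR32 alone in each screen. This order does not hold for the mean over gRNAs, because COPS7A_4 stood at -5.44 and the lowest COPS7B gRNA at -0.77.

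A pair of signalosome subunits carries other names in the library and so fell outside the rule. GPS1, which is subunit 1, had a level of -0.88 ± 0.11, and MYEOV2, now COPS9, had -2.95 ± 0.66 (SD, n = 2 each), ranked 3 of 19364 genes. With them, 5 of 10 subunits were low. All 4 gRNAs of MYEOV2 were below 0, between -3.79 and -1.33.

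Single gRNAs of a gene often differed. In IMR32 alone 93 of 112 member gRNAs had a level below 0, and 20 (17.9%) were below the 5th percentile of olfactory receptor gRNAs, -1.31, against 10.3% of all gRNAs. Of these 20, 16 belonged to low genes. The other 4 were single gRNAs of genes whose remaining gRNAs were not low, namely COPS7A_4 at -5.44, CUL4A_3 at -3.43, COPS3_4 at -2.73 and COPS6_4 at -2.27. COPS7A_4 had 19, 18 and 9 reads in screen 1 and 22, 47 and 24 in screen 2, so its scarcity was common to all conditions. The range over the 4 gRNAs of a gene had a median of 1.52 log2 units in low members and 1.11 in the others, while the SD between the 2 libraries of a gene had medians of 0.27 and 0.15. A range over 4 gRNAs and an SD of 2 gene medians are unlike measures. With the mean instead of the median over gRNAs, CUL4A (-0.97), COPS3 (-0.91), COPS6 (-0.93) and COPS7A (-1.39) became low. SKP1, DDB1 and COPS2 were then no longer low. The threshold also changed, since it was taken from olfactory receptor genes by the same mean.

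Among 49 further genes of the pathway, 10 were low, 20.4% against the 16.9% of all genes, and the median level of the 49 was -0.42. Besides GPS1 and MYEOV2 these were the CRL4-DTL substrate CDT1 (-2.15 ± 0.13) and the replication clamp PCNA (-1.24 ± 0.04), to which CDT1 must bind to be recognised. TCEB2 (-1.84 ± 0.51) and TCEB1 (-1.20 ± 0.36), now ELOB and ELOC, are the elongin adaptors of CUL2 and CUL5, and VHL (-1.60 ± 0.26) is a CUL2 receptor. The others were ARIH1 (-1.19 ± 0.04), a ligase that works with neddylated cullins, AMBRA1 (-0.91 ± 0.29), a CRL4 receptor, and SPOP (-0.80 ± 0.26), a CUL3 receptor (SD, n = 2 each). RNF7, the RING subunit that partners CUL5, had -0.43 and UBE2F, the matching E2 enzyme, had -0.52, above RBX1 and UBE2M in each case, although UBE2M without its nearly absent gRNA (-0.41) lay above UBE2F. No gene encoding a DCN1-like protein, which helps to join NEDD8 to cullins, was low, and their 5 levels ran from -0.48 for DCUN1D2 to 0.41 for DCUN1D3.

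The study asked which knockouts are depleted when lymphocytes attack, and above all when nivolumab is added. In limma, with the screen as a block and p-values adjusted over all 19364 genes, 0 of 28 members passed an adjusted p of 0.05 in any of the 3 comparisons. The background was as empty, with 0.00516% of genes called between coculture and IMR32 alone, and 0% in both comparisons with nivolumab. The members' log2 changes ranged from -0.24 to 0.23 between coculture and IMR32 alone, from -0.24 to 0.20 between nivolumab and IMR32 alone, and from -0.17 to 0.18 between nivolumab and coculture. The median standard error was 0.09 in each. Per gRNA, 0 of 112 passed in any comparison, against 0.00129%, 0.00129% and 0% of all gRNAs.

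At an unadjusted p under 0.05 limma gave 3, 3 and 2 members in these comparisons, or 10.7%, 10.7% and 7.14%, against 5.29%, 5.4% and 4.61% of all genes. Between coculture and IMR32 alone they were NEDD8 (-0.24, standard error 0.11, adjusted p = 0.924), CUL2 (0.23, standard error 0.08, adjusted p = 0.913) and FBXW7 (0.19, standard error 0.07, adjusted p = 0.924). Between nivolumab and IMR32 alone they were DDB1 (-0.24), CUL9 (-0.20) and CAND1 (0.20), with a smallest adjusted p of 0.786 from limma. Between nivolumab and coculture they were CUL7 (0.17) and FBXW7 (-0.17), each with an adjusted p of 0.997 from limma. FBXW7 appears with opposite signs in comparisons that share the coculture libraries. Per gRNA the counts at an unadjusted p under 0.05 were 8, 6 and 5 of 112, or 7.14%, 5.36% and 4.46%, against 4.79%, 5.06% and 4.46% of all gRNAs. None of these values passed the adjustment. Several also turned on 1 library. NEDD8 between coculture and IMR32 alone had -0.05 without the coculture library of screen 1 and -0.42 without that of screen 2. DDB1 between nivolumab and IMR32 alone had -0.04 without the library of IMR32 alone of screen 1 and -0.44 without that of screen 2. CUL9 in the same comparison had -0.35 without the nivolumab library of screen 1 and -0.04 without that of screen 2. CUL7 between nivolumab and coculture had 0.08 and 0.26 without the nivolumab library of screen 1 and of screen 2. The signs of all the values named held with any 1 library left out.

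The study selected depleted genes by a threshold of 2 SD under the mean score of a screen, with scores from MAGeCK and with mitochondrial and ribosomal genes excluded. Here that threshold was applied to a simpler score, the median log2 ratio over the gRNAs of a gene, over all 19364 genes. For nivolumab against coculture the thresholds came out at -0.22 in screen 1 and -0.24 in screen 2. CUL5 (-0.38, rank 18 of 19364) and FBXW7 (-0.22, rank 444) were below it in screen 1, 7.14% of members against 2.45% of genes. COPS7A (-0.45, rank 10), CUL9 (-0.26) and DDB1 (-0.26) were below it in screen 2, 10.7% against 2.52%. By this simpler score none of the 28 was below it in both screens, against 0.134% of all genes. CUL5 had 0.06 in screen 2, and in screen 1 its gRNA CUL5_1 had 0.27 and the other 3 between -0.68 and -0.32. COPS7A had 0.11 in screen 1 and in screen 2 ratios of -0.22, -0.53, -0.37 and -1.20 over its 4 gRNAs. FBXW7 had levels of -0.19, 0.11 and -0.06 in screen 1 and of -0.10, -0.08 and -0.17 in screen 2, for IMR32 alone, coculture and nivolumab. CUL5 had -0.31, -0.30 and -0.46, and then -0.45, -0.67 and -0.57. COPS7A had -0.36, -0.56 and -0.35, and then -0.12, -0.04 and -0.50, and CUL9, a cullin that resembles CUL7, had -0.36, -0.69 and -0.59, and then -0.58, -0.62 and -0.73. Of the 5 genes, DDB1 had its lowest level with nivolumab in both screens. It had -0.79 against -0.77 in coculture in screen 1, and -1.32 against -1.15 in screen 2. The other 4 had their lowest level with nivolumab in at most 1 screen. The DDB1 score in screen 1 was 0.02, however, and so not below 0. With 1 library per condition in a screen these calls have no replicate check.

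In the other comparisons the same criterion named other members. Between coculture and IMR32 alone it took 4 of 28 in screen 1 (NEDD8, COPS6, UBE2M and DDB1, from -0.38 to -0.28), against 2.51% of genes, and 2 in screen 2 (DTL and COPS7B), against 2.44%. The UBE2M score is a median that includes the nearly absent UBE2M_4. Between nivolumab and IMR32 alone it took 2 in screen 1 (DDB1 and COPS6), against 2.64%, and 4 in screen 2 (CUL9, SKP1, CUL4A and COPS7A, from -0.33 to -0.24), against 2.34%. No member was below in both screens of either comparison, against 0.0826% and 0.0878% of genes. These comparisons share libraries, so a member that recurs, such as DDB1 or COPS6 in screen 1, rests partly on the same library of IMR32 alone.

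The study lists DTL as common to its patient data and its CRISPR screen, with scores computed otherwise than here. By the simpler score used here, DTL was not below the threshold for nivolumab against coculture in either screen. That score was 0.06 in screen 1 and 0.37 in screen 2, where DTL ranked 19322 of 19364 genes from the lowest. In screen 2 the ratios were -0.01 for DTL_1, 0.27 for DTL_2, 0.55 for DTL_3 and 0.48 for DTL_4, with counting errors of 0.09, 0.42, 0.11 and 0.19 on the log2 scale. In screen 1 they were 0.14, 0.52, -0.02 and -0.71, so that the gRNAs moved apart, and the median level there was lower with nivolumab (-2.07) than in coculture (-1.72) although the score was not below 0. The same coculture library gave DTL a score of -0.33 against IMR32 alone, below that comparison's threshold of -0.24, whereas screen 1 gave -0.10. Against IMR32 alone, DTL with nivolumab had scores of -0.21 in screen 1 and -0.01 in screen 2. Over both screens limma gave a log2 change of 0.18 with nivolumab relative to coculture (95% interval -0.09 to 0.45, adjusted p = 0.997), and of -0.23 for coculture relative to IMR32 alone (-0.50 to 0.05, adjusted p = 0.980). The coculture library of screen 2 was the lowest of the 6 for DTL, at -2.33, and the remaining 5 lay between -2.07 and -1.68.

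More members passed the test between the screens than between the conditions. This comparison was made after the values were seen, and it sets the 3 libraries of screen 2 against the 3 of screen 1 in the same limma fit. The 3 libraries of a screen are not independent replicates of that screen. At an adjusted p of 0.05, 10 of 28 members were lower in screen 2, 35.7% against 8.53% of all genes, and 1 was higher, 3.57% against 6.61%. In all, 24 of 28 members had a change below 0, against 48.9% of all genes. The median change was -0.15 for members and 0.00 over all genes. COPS4 changed most, by -0.51 (standard error 0.08, adjusted p = 4.01e-07), followed by UBA3 with -0.44 (adjusted p = 6.47e-05), UBE2M with -0.39 (adjusted p = 0.0069) and CUL3 with -0.38 (adjusted p = 0.000424), all from limma. DDB1 (-0.33), NEDD8 (-0.33), COPS6 (-0.32), COPS2 (-0.32), SKP2 (-0.26) and CUL2 (-0.24) also passed. In level, every library of screen 2 was below every library of screen 1 for these genes apart from UBA3 and NEDD8. COPS7A was the member that was higher, by 0.20 (adjusted p = 0.0397 from limma).

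Most of the members that passed as lower in screen 2 were low genes. All 12 low members had a change below 0 and 7 of them passed, with a median of -0.32. Of the other 16, 12 had a change below 0 and 3 passed as lower, with a median of -0.07. The call of a low gene used the library of IMR32 alone from screen 2, and COPS4, DDB1 and COPS2 were low only through it, so this split is a description that the change itself partly fixes. Among 3256 low genes of the library outside the members, 68.9% had a change below 0 and 19.7% passed in that direction, with a median of -0.08. Olfactory receptor genes had a median of 0.01, with 18 lower and 17 higher of 374. COPS5 (-0.25, adjusted p = 0.0752) and DTL (-0.12, adjusted p = 0.524, limma) did not pass, although they were the lowest members by level. Per gRNA, 17 of 112 were lower in screen 2 in limma, 15.2% against 4.5% of all gRNAs, and 1 was higher, COPS8_4, 0.893% against 3.63%. Those lower included UBE2M_1 (-0.81), UBA3_1 (-1.01), UBA3_2 (-0.70), COPS4_3 (-1.75) and SKP2_4 (-0.70). In IMR32 alone, with 1 library per screen, the members were not all alike. CUL3 had -0.76 in screen 1 and -1.35 in screen 2. DTL (-1.87 and -1.68) and SKP1 (-0.96 and -0.83) were among those higher in screen 2 there. With either library of IMR32 alone left out, DDB1 (-0.20), UBE2M (-0.28), COPS6 (-0.23), CUL2 (-0.20) and COPS7A (0.21) no longer passed. NEDD8 (-0.22) and UBE2M (-0.33) did not pass without either nivolumab library, and NEDD8 (-0.31) also without IMR32 alone of screen 1. Among the cocultures, donor, lymphocyte ratio and screen cannot be told apart. What set the screens apart was not tested. The study transduced the cells in duplicate, and which population went into which screen is not stated. The 3 libraries of a screen may stem from 1 transduced population, so that the p-values measure only the spread between libraries.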

How the data were processed

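gRNA cassettes were amplified from genomic DNA of 6 samples and sequenced. MAGeCK was named by the submitters' processing notes, and the study also followed lineages by UMI. The version of MAGeCK and any collapsing of UMIs are not given in the sources used here. The deposited values are a signal, read numbers per gRNA scaled by the authors to 1 common total. They are whole multiples of 1 step per library, from which reads were counted. Counting errors cover counting only.

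Levels, gene medians and scores were computed with a pseudocount of 1 (Python 3.11.15, numpy 2.4.6, pandas 2.3.3), which understates changes of gRNAs with few reads. limma 3.58.1 (R 4.3.3) was fitted with condition and replicate number, on gRNA levels or, per gene, on the median over gRNAs of deviations from each gRNA's mean, added to the gene's mean level. A trial on simulated data spiked changes larger than any member's change between conditions, without a difference between screens. It does not show whether smaller changes could be found. The block was used because differences between screens correlated across genes at 0.493, 0.496 and 0.487 between pairs of conditions. The fit leaves 2 residual degrees of freedom, so p-values rest on a variance shared across genes. Every member is named. Values in every library are given for DTL, the highest member, low members and members called by limma. They are also given for members below the score threshold for nivolumab against coculture. Further pathway genes are named if low, and RNF7, UBE2F and the DCN1-like genes were chosen after their values were seen. Members and lists were chosen with earlier results of these data known. Positions are from GENCODE release 44 on GRCh38, and older symbols were matched through RefSeq.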

Additional observations from a re-analysis of the deposited data

How the results depend on the processing

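The number of low members in IMR32 alone was between 11 and 13 with pseudocounts of 10 and 50, without gRNAs under 50 normalized reads, with the mean over gRNAs and over all 6 libraries. With the 1st percentile of olfactory receptor genes as the threshold it was 3 (DTL, COPS5 and UBE2M). Without replicate 1 or 2 it ranged from 9 to 13, and without replicate 2 COPS4 (-0.52), DDB1 (-0.49) and COPS2 (-0.49) were not low. No setting made a member high. In limma 0 member genes passed in the 3 comparisons of conditions under every setting run, and without the replicate block the numbers at an unadjusted p under 0.05 were 188, 204 and 150 of all genes, against 1024, 1046 and 892 with it, and 1 member in each comparison. Per gRNA, leaving out 1 library gave 0 to 1 calls in each of these comparisons, from fits with a single library in a condition, which is assumed to vary like the others. Over all gRNAs these refits called up to 103, against at most 1 from all libraries. The members lower or higher in screen 2 numbered 6 to 10 when 1 library was left out, against 11 in all, and 12 to 15 gRNAs against 18. Over all genes these calls numbered 1730 to 1833, against 2930. COPS7A lost its call without either coculture library (0.04), and UBE2M with the mean over gRNAs (-0.38). Members below the score threshold in screen 1 numbered 1, CUL5, with the mean over gRNAs or the second most depleted gRNA. In screen 2, where COPS7A, CUL9 and DDB1 were below it, the mean over gRNAs kept COPS7A and added UBE2M, the second most depleted gRNA lost DDB1, and a pseudocount of 50 or a threshold from the MAD added COPS3. edgeR and DESeq2 on recovered reads were planned and not run, because 4 of 6 libraries held too few low values to check the recovered reads. No direction of a called value turned. Depth limits the scarcest gRNAs: UBE2M_4, with 0 to 16 reads per library, cannot show a difference between conditions.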
